A study of Mus musculus with 16 samples.

Results

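The question was whether 7 days of doxycycline changed gene expression differently in leukaemia cells of the spleen and of the bone marrow, and, for each gene where it did, which libraries made the difference. The comparison used the 12 libraries of that time point among the 16 of the series: 3 control and 3 doxycycline libraries from each tissue, chosen by their labels. The cells of all 4 groups were mouse leukaemia cells that carried the fusion gene CBFB::MYH11 and GFP, grew in congenic recipient mice and were isolated by sorting for GFP. The treated mice drank 3 mg/ml doxycycline in 5% sucrose water and the controls drank 5% sucrose water. Per the design text, the transplanted cells held a doxycycline-inducible shRNA directed at MYH11. The sample labels give the transduction only for the treated libraries and describe the control libraries as primary cells expressing the fusion, so whether the controls held the shRNA rests on the design text. Doxycycline was given in no group that lacked the shRNA, and drug and knockdown effects cannot be told apart. The labels number the replicates without naming animals, and neither origin nor clonality of the leukaemia line is stated, so the spread behind each p-value is that between samples, which may be technical.

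CBFB is the partner protein of the RUNX transcription factors and steadies their binding to DNA. The inversion of chromosome 16 found in acute myeloid leukaemia joins it to the tail of the smooth muscle myosin heavy chain MYH11, and the fusion protein disturbs RUNX function in blood progenitors. Leukaemia cells in bone marrow and spleen carry the same fusion but sit among different stromal and blood cells.

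The interaction of a gene was taken as its log2 doxycycline effect in spleen minus that in bone marrow. A positive interaction means that expression went up more, or down less, in spleen. The same number is the spleen against bone marrow difference under doxycycline minus the difference between the controls of these tissues. A called gene was therefore assigned to the controls where the size of the control difference was at least 2 times that under doxycycline, to doxycycline where the reverse held, and to both otherwise. This is a rule of size and not a test.

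Of 14140 genes tested, 23 were called (edgeR adjusted p under 0.05), 11 with a more positive effect in spleen and 12 with a more negative one. That is 0.163% of the genes tested, 0.0778% in the positive and 0.0849% in the negative direction. The median interaction of all genes was 0.06. By the size rule the tissue difference lay mainly between the controls for 5 of the 23 genes: Phf11d, Dusp1, Slc52a3, Hspa12b and Car7. It lay mainly between the treated libraries for 7: Itpr1, Sumf1, Slc14a1, Ednra, Rdm1, Filip1l and Hist1h3c. Both sets of libraries contributed for 11: Pou4f1, Maml2, Slc22a13, Slc22a13b, Kdm2b, C430002N11Rik, Tmem144, Pgam1, Nr4a1, Cenph and Samhd1.

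The 4 promoters below are shown because Dusp1 and Nr4a1, 2 immediate early genes with large positive interactions, hold TGACG, the core of the cyclic AMP response element, and because Sumf1 and Slc22a13, 2 genes whose treated bone marrow libraries lay above all others, hold the RUNX motif TGTGGT. They are RefSeq sequences of the build GRCm38.p6, from 250 bases before to 50 after the start site, written 5′ to 3′ on the strand of the gene. Dusp1 lies at chr17:26508423-26508722 (minus strand), Nr4a1 at chr15:101266596-101266895 (plus strand), Sumf1 at chr6:108185534-108185833 (minus strand) and Slc22a13 at chr9:119209056-119209355 (minus strand). Capitals mark TGACG and TGTGGT on either strand.
Dusp1: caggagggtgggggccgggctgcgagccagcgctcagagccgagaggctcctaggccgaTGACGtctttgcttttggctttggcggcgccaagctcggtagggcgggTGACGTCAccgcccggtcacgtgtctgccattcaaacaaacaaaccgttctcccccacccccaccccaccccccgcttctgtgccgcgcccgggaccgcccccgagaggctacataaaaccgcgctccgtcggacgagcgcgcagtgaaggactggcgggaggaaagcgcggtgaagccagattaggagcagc
Nr4a1: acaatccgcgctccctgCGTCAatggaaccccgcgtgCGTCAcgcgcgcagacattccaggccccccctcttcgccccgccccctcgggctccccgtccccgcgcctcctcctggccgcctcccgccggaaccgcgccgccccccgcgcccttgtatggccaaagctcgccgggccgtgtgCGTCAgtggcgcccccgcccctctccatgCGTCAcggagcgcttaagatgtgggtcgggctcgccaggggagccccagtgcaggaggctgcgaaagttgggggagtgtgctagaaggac
Sumf1: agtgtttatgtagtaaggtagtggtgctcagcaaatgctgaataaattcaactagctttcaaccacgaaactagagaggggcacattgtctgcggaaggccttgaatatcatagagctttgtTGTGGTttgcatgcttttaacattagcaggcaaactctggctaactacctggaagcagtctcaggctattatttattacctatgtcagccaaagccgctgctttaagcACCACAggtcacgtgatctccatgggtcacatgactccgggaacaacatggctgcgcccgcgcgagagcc
Slc22a13: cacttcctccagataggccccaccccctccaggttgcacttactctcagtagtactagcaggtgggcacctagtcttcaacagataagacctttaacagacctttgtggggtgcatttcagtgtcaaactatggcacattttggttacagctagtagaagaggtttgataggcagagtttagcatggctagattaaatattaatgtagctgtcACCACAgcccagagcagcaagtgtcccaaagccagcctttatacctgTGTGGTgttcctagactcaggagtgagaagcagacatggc
Dusp1 held TGACG at −191, −143 and −140 from the start site, the last pair overlapping in the full element TGACGTCA at −143. Nr4a1 held it at −233, −213, −69 and −40. TGTGGT lay at −128 and −20 in Sumf1 and at −37 and 11 in Slc22a13. Among 32851 promoters of this length in the table, searched on both strands, 20.8% held TGACG, 1.79% TGACGTCA and 16.8% TGTGGT. An entry was used for 17 of the 23 called genes, with 27 promoters in all, of which 9 (6 genes) held TGACG and 6 (5 genes) TGTGGT. Motif and pattern did not go together throughout. Ednra, also highest in every treated bone marrow library, held no TGTGGT. Kdm2b, lowest in treated bone marrow, held it. Samhd1 and Tmem144 held it too, and their highest group mean was in treated bone marrow, with libraries that overlapped the spleen controls. A promoter of Tmem144, which had a negative interaction, also held TGACGTCA. The letters describe these windows only and mark no proven binding site.

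**Figure D1:**
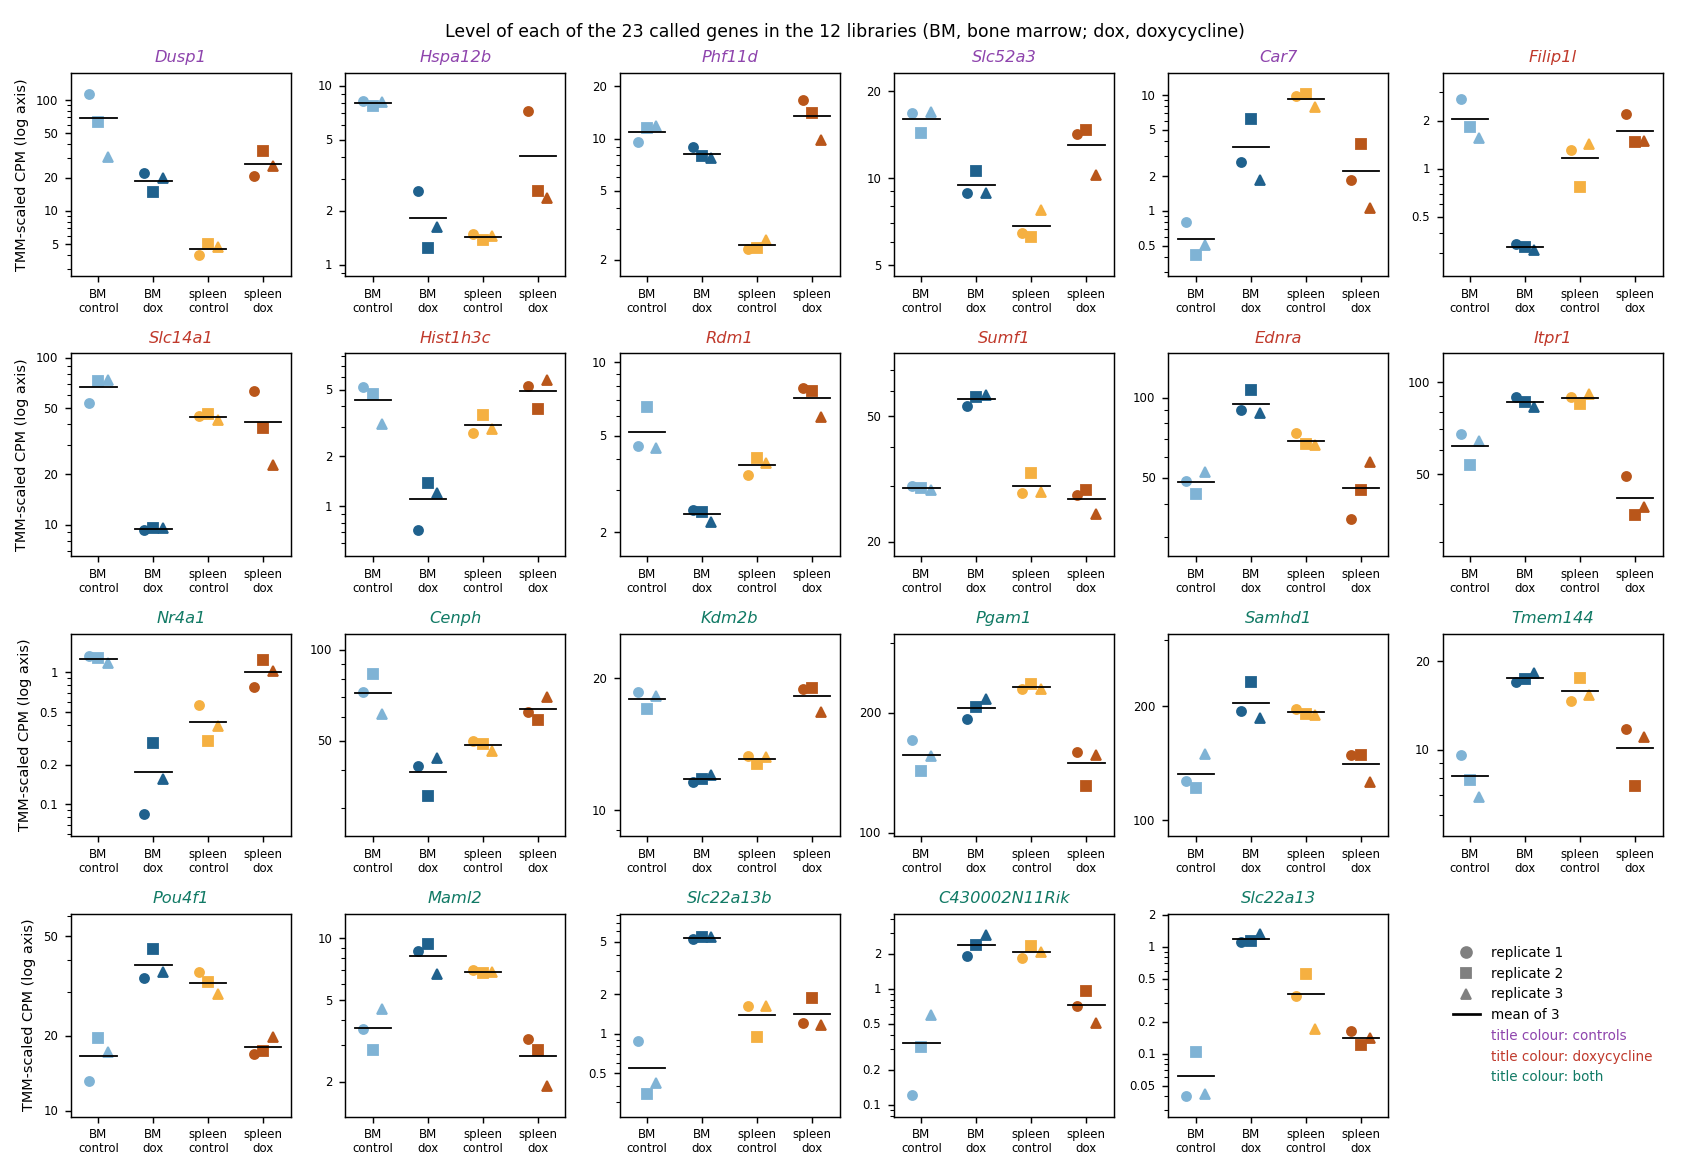
TMM-scaled CPM (log axis) of each of the 23 called genes in the 12 libraries, with 1 panel per gene, 1 symbol per replicate and a line at the mean of 3. The spleen control libraries of Dusp1 sit between 3.98 and 5.01 CPM, under all other libraries, while for Sumf1 the bone marrow doxycycline libraries sit between 53.6 and 58.2 CPM, over all others.

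The call with the lowest adjusted p and 4 others came mainly from the controls of the tissues. Levels are given as TMM-scaled counts per 1000000 (CPM), in the order of replicates 1, 2 and 3. Phf11d (ENSMUSG00000068245, chromosome 14, 59347407 to 59365470, minus strand, GRCm38), 1 of a cluster of PHD finger genes, measured 9.53, 11.5 and 11.8 CPM in the bone marrow controls and 8.94, 7.92 and 7.71 CPM with doxycycline. In the spleen controls it measured 2.32, 2.36 and 2.60 CPM, and 16.6, 14.0 and 9.78 CPM in treated spleen. The 3 spleen controls were thus below all 9 other libraries, which ran from 7.71 to 16.6 CPM. The control difference was −2.17 ± 0.21 (SE, log2; adjusted p = 0.00273), that under doxycycline 0.72 ± 0.20 (adjusted p = 0.121), and the interaction 2.88 ± 0.29 (adjusted p = 0.0113). Phf11d rose 5.53-fold in spleen (adjusted p = 0.00117), and it was the called gene without a called change in bone marrow (log2 fold change −0.41 ± 0.20, adjusted p = 0.203).

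Dusp1 (ENSMUSG00000024190, chromosome 17, 26505590 to 26562128, minus strand) encodes a nuclear phosphatase that switches off MAP kinases and is itself induced within minutes by their activity. It measured 114, 63.4 and 30.4 CPM in the bone marrow controls and 21.9, 14.8 and 19.7 CPM in treated bone marrow. The spleen controls held 3.98, 5.01 and 4.77 CPM and treated spleen 20.7, 34.4 and 25.3 CPM. The controls of the tissues did not overlap and differed 15.0-fold (−3.91 ± 0.43, adjusted p = 0.00632), whereas the treated libraries overlapped (0.51 ± 0.38, adjusted p = 0.511). In spleen Dusp1 rose by 2.54 ± 0.41 (adjusted p = 0.0305), whereas bone marrow Dusp1 fell by 1.88 ± 0.39 (adjusted p = 0.0182), and the interaction was 4.42 ± 0.56 (adjusted p = 0.0281). Exons of Ergic1 on the other strand overlap its annotation. No source used here says whether the counting used strand, and the part of Ergic1 reads in Dusp1 was not tested. Ergic1 itself had a control difference of 0.00 ± 0.31 and an interaction of 0.99 ± 0.44 (adjusted p = 0.402).

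Hspa12b (ENSMUSG00000074793, chromosome 2, 131127280 to 131146321, plus strand), a divergent member of the heat shock protein 70 family known from endothelial cells, had 8.21, 7.73 and 8.06 CPM in bone marrow controls against 1.49, 1.37 and 1.45 CPM in spleen controls. Treated bone marrow held 2.60, 1.24 and 1.63 CPM and treated spleen 7.22, 2.59 and 2.36 CPM. Treated spleen replicate 1 was near the bone marrow controls, and its other 2 replicates were within the range of treated bone marrow. The interaction was 3.64 ± 0.60 (adjusted p = 0.0494), and 2.92 without that replicate. Slc52a3 (ENSMUSG00000027463, chromosome 2, 151996511 to 152009258, plus strand), a riboflavin transporter gene, had 16.8, 14.4 and 16.9 CPM in bone marrow controls and 6.47, 6.25 and 7.74 CPM in spleen controls, with 8.86, 10.6 and 8.87 CPM in treated bone marrow and 14.2, 14.7 and 10.3 CPM in treated spleen. With doxycycline it rose by 0.94 ± 0.18 in spleen and in bone marrow fell by 0.76 ± 0.18 (interaction 1.70 ± 0.25, adjusted p = 0.0425). For both genes the tissue difference was called between controls (adjusted p = 0.0327 for Hspa12b and 0.0173 for Slc52a3) and not between treated libraries, which overlapped.

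Car7 (ENSMUSG00000031883, chromosome 8, 104534689 to 104550343, plus strand), encoding a cytosolic carbonic anhydrase, was the gene of this group with a negative interaction. Its spleen controls held 9.84, 10.1 and 7.86 CPM against 0.801, 0.418 and 0.506 CPM in bone marrow controls, a difference of 4.00 ± 0.58 (adjusted p = 0.0164). The treated libraries lay in between and overlapped, at 2.64, 6.18 and 1.86 CPM in bone marrow and 1.84, 3.78 and 1.07 CPM in spleen (−0.67 ± 0.51, adjusted p = 0.514). The interaction was −4.68 ± 0.76 (adjusted p = 0.0485). Car7 rose by 2.63 ± 0.55 in bone marrow (adjusted p = 0.0186), and its spleen effect of −2.05 ± 0.52 was not called (adjusted p = 0.0675).

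**Figure D2:**
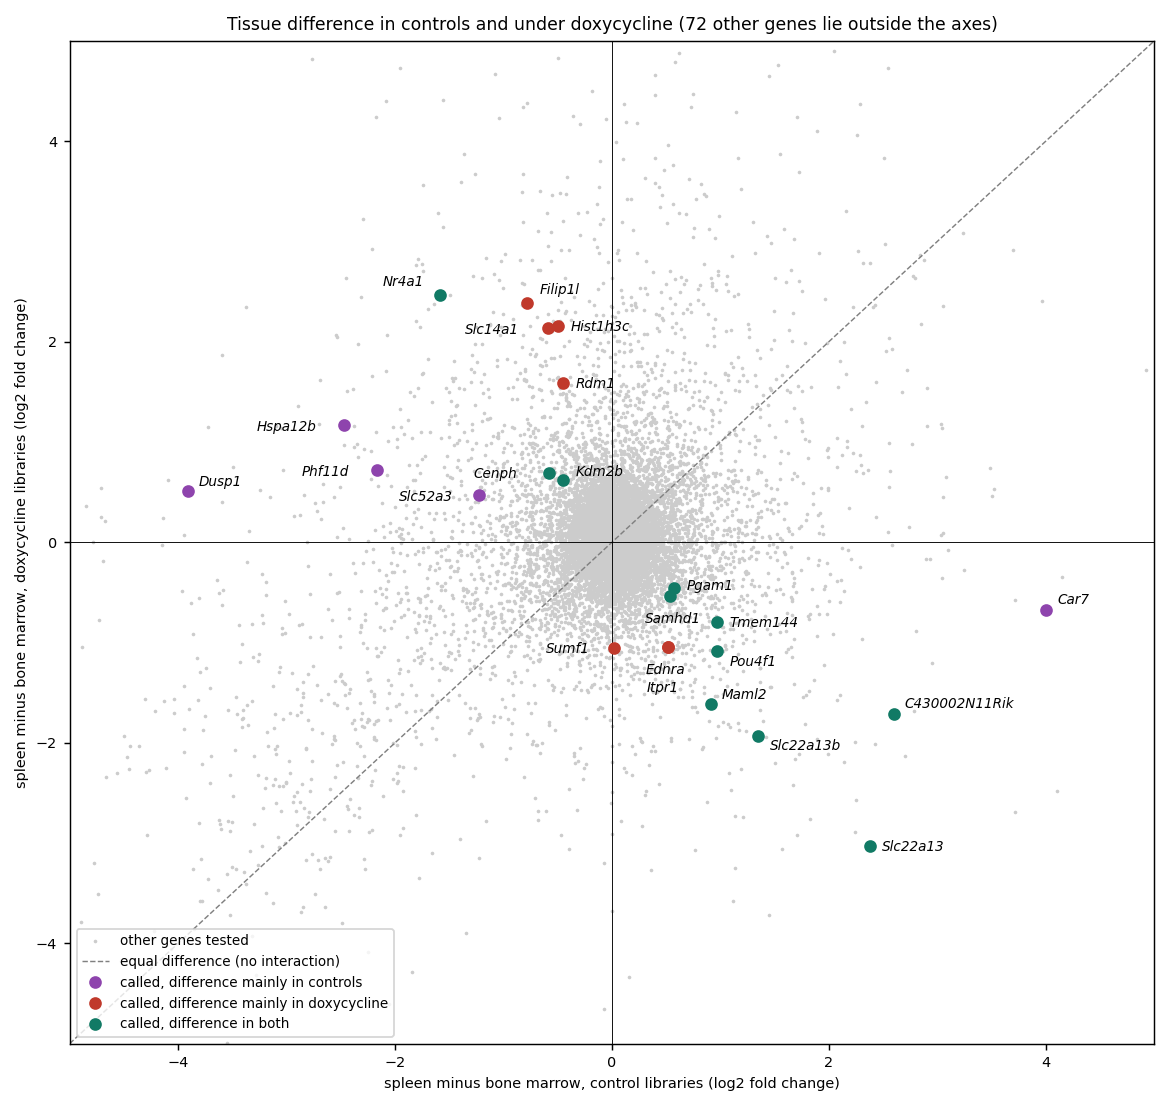
Spleen minus bone marrow log2 fold change in the control libraries (horizontal) against that in the doxycycline libraries (vertical) for the genes tested, with the 23 called genes coloured by the size rule. The vertical distance of a gene from the dashed line of equal differences is its interaction; Dusp1 and Car7 lie far out along the horizontal axis, and Slc14a1, Hist1h3c, Rdm1 and Sumf1 lie close to the vertical axis. The axes end at 5 and leave out 72 genes that were not called.

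In the second group the tissues differed less in the controls than under doxycycline. The clearest case was Sumf1 (ENSMUSG00000030101, chromosome 6, 108107028 to 108185582, minus strand), whose enzyme activates the sulfatases. It measured 30.1, 29.6 and 29.2 CPM in bone marrow controls and 28.5, 32.98 and 28.6 CPM in spleen controls. Treated bone marrow rose to 53.6, 57.6 and 58.2 CPM, and treated spleen held 28.1, 29.1 and 24.4 CPM. The other 3 groups thus lay between 24.4 and 32.98 CPM, and treated bone marrow stood apart at 1.91 times its control. The control difference was 0.02 ± 0.11, that under doxycycline −1.05 ± 0.11 (adjusted p = 0.0137), and the interaction −1.07 ± 0.15 (adjusted p = 0.0425).

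Itpr1 (ENSMUSG00000030102, chromosome 6, 108213096 to 108551109, plus strand), the gene of an inositol trisphosphate receptor that releases calcium from the endoplasmic reticulum, is the neighbour of Sumf1. The annotated genes lie 27514 bases apart with 0 protein-coding genes between them, and both had negative interactions. Whether they are linked was not tested, and a different group stood apart in each. Itpr1 measured 67.6, 53.5 and 64.1 CPM in bone marrow controls, 89.5, 86.0 and 82.6 CPM in treated bone marrow and 89.4, 84.9 and 91.1 CPM in spleen controls. Treated spleen held 49.2, 36.8 and 39.1 CPM, lower than every other library. Itpr1 rose by 0.48 ± 0.13 in bone marrow (adjusted p = 0.0417) and fell by 1.09 ± 0.13 in spleen (adjusted p = 0.0141), an interaction of −1.56 ± 0.19 (adjusted p = 0.0176). It was the called gene in which treated spleen stood apart. Its control difference of 0.52 was 0.497 times the size of that under doxycycline, which put it only just within this group.

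Ednra (ENSMUSG00000031616, chromosome 8, 77663031 to 77724464, minus strand), the endothelin receptor type A gene, was near the same limit at 0.490 times. Its bone marrow libraries held 48.8, 43.3 and 52.8 CPM in controls and 90.1, 107 and 87.6 CPM with doxycycline. Its spleen libraries held 73.6, 66.8 and 66.4 CPM in controls and 34.9, 45.2 and 57.5 CPM with doxycycline. It rose by 0.97 ± 0.17 in bone marrow (adjusted p = 0.00966), and the spleen value of −0.59 ± 0.17 was not called (adjusted p = 0.0913). The interaction of −1.56 ± 0.24 (adjusted p = 0.0425) is uncertain as to its source, since exons of the long non-coding gene 4933431K23Rik overlap those of Ednra on the other strand. That gene had an interaction of −2.48 ± 0.47 (adjusted p = 0.0705).

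The other 4 genes of this group had positive interactions and fell in bone marrow. Slc14a1 (ENSMUSG00000059336), the urea transporter gene of red cells, measured 53.7, 73.0 and 73.9 CPM in bone marrow controls and 9.32, 9.52 and 9.57 CPM in treated bone marrow. Spleen controls held 44.6, 46.1 and 42.7 CPM and treated spleen 63.6, 37.9 and 22.8 CPM, with no overlap with treated bone marrow. It fell 7.06-fold in bone marrow (adjusted p = 0.00308), while spleen showed −0.10 ± 0.28 (adjusted p = 0.887), with its treated replicates on both sides of the controls (interaction 2.72 ± 0.41, adjusted p = 0.0425). Markers of red cells moved the other way in treated bone marrow: the 20 erythroid markers tested had a median effect of 2.91 there, and 11 of them rose, where 6.75% of all genes were called up. In spleen their median effect was 3.36, with 0 called by edgeR and 18 up at an unadjusted p under 0.05, where 11.7% of all genes were up. Treated spleen replicate 1, the library with the highest Slc14a1 of its group, had adult globin at 0.526% of counts against 7.15 and 3.73% in its other 2 replicates. The part of red cell content in these values was not tested.

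Filip1l (ENSMUSG00000043336, chromosome 16, 57353093 to 57573126, plus strand), encoding a filamin-interacting protein, measured 2.72, 1.81 and 1.56 CPM in bone marrow controls and 0.341, 0.327 and 0.310 CPM in treated bone marrow, a 6.16-fold fall (adjusted p = 0.00594). Its spleen libraries held 1.31, 0.771 and 1.42 CPM in controls and 2.20, 1.47 and 1.48 CPM with doxycycline. Hist1h3c (ENSMUSG00000069310, chromosome 13, 23744973 to 23745602, minus strand), a replication-dependent histone H3 gene, went from 5.20, 4.70 and 3.12 CPM to 0.724, 1.38 and 1.20 CPM in bone marrow. In spleen it held 2.75, 3.56 and 2.92 CPM in controls and 5.28, 3.82 and 5.75 CPM with doxycycline. For both genes the 3 treated bone marrow libraries lay below all others, with interactions of 3.17 ± 0.51 for Filip1l (adjusted p = 0.0485) and 2.66 ± 0.44 for Hist1h3c (adjusted p = 0.0494). Messages of replication-dependent histones mostly lack a poly(A) tail and their genes are near-copies of one another, so Hist1h3c counts from oligo-dT enriched RNA are uncertain.

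Rdm1 (ENSMUSG00000010362, chromosome 11, 101627195 to 101636100, plus strand), whose protein carries a RAD52-type motif, had 4.52, 6.58 and 4.43 CPM in bone marrow controls and 2.47, 2.43 and 2.21 CPM in treated bone marrow. Spleen controls held 3.45, 4.03 and 3.86 CPM and treated spleen 7.87, 7.61 and 5.98 CPM. The fall in bone marrow was called (−1.13 ± 0.23, adjusted p = 0.0163), and the spleen value was not (0.92 ± 0.22, adjusted p = 0.0611), though its treated and control libraries did not overlap. The difference between the treated tissues was 3.01-fold (adjusted p = 0.0254), and the interaction 2.05 ± 0.32 (adjusted p = 0.045).

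In the third group the tissue differences in controls and under doxycycline were within 2-fold of each other in size and of opposite sign. Pou4f1 encodes a POU-domain transcription factor known from sensory neurons (ENSMUSG00000048349, chromosome 14, 104461676 to 104467999, minus strand) and was the gene for which both differences were called. It measured 13.1, 19.6 and 17.2 CPM in bone marrow controls and 36.0, 32.6 and 29.2 CPM in spleen controls. With doxycycline bone marrow held 34.1, 44.5 and 36.0 CPM and spleen 16.9, 17.4 and 19.7 CPM. Treated bone marrow was thus at the level of control spleen, and treated spleen at that of control bone marrow. The control difference was 0.97 ± 0.17 (adjusted p = 0.0324) and that under doxycycline −1.09 ± 0.17 (adjusted p = 0.0299), an interaction of −2.05 ± 0.24 (adjusted p = 0.0176).

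Maml2 (ENSMUSG00000031925, chromosome 9, 13297957 to 13709388, plus strand), a coactivator gene of Notch signalling, had 3.60, 2.86 and 4.51 CPM in bone marrow controls and 8.64, 9.37 and 6.66 CPM in treated bone marrow. Its spleen controls held 6.99, 6.77 and 6.88 CPM and treated spleen 3.24, 2.87 and 1.90 CPM. It rose by 1.17 ± 0.26 in bone marrow (adjusted p = 0.0203) and fell by 1.36 ± 0.26 in spleen (adjusted p = 0.0422), and only the treated difference between the tissues was called (−1.62 ± 0.26, adjusted p = 0.0299). Pgam1 (ENSMUSG00000011752, chromosome 19, 41911923 to 41918660, plus strand), encoding the glycolytic phosphoglycerate mutase, had 171, 143 and 156 CPM in bone marrow controls, 193, 207 and 217 CPM in treated bone marrow, 230.0, 237 and 230 CPM in spleen controls and 160, 131 and 157 CPM in treated spleen. Its changes were small, 1.31-fold up in bone marrow (adjusted p = 0.0491) and 1.55-fold down in spleen (adjusted p = 0.0373). The interactions were −2.53 ± 0.36 for Maml2 (adjusted p = 0.0425) and −1.03 ± 0.16 for Pgam1 (adjusted p = 0.045). Pgam1 has processed pseudogenes, among which reads could be split.

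The adjacent genes Slc22a13 (ENSMUSG00000074028, chromosome 9, 119192974 to 119209098, minus strand), an organic anion transporter gene, and Slc22a13b (ENSMUSG00000092212, 119220488 to 119231692), annotated as a polymorphic pseudogene, lie 11390 bases apart and are near-copies. Slc22a13b measured 0.881, 0.348 and 0.422 CPM in bone marrow controls and 5.24, 5.49 and 5.42 CPM in treated bone marrow, against 1.62, 0.942 and 1.62 CPM in spleen controls and 1.20, 1.87 and 1.16 CPM in treated spleen. It rose 9.74-fold in bone marrow (adjusted p = 0.00417) and by 0.01 ± 0.37, not called, in spleen (interaction −3.27 ± 0.54, adjusted p = 0.0494). Slc22a13 was at the edge of detection, with 1.10, 3.00 and 1.31 expected counts in bone marrow controls and 25.7, 30.9 and 34.4 in treated bone marrow. The scaled ratio of these sums was 18.3 (95% exact interval 7.58 to 57.8, counting error only), and the fitted interaction of −5.40 ± 0.79 (adjusted p = 0.0425) depends on how values near 0 are handled. Reads could be split between the pair.

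C430002N11Rik (ENSMUSG00000101581, chromosome 9, 96765562 to 96782477, plus strand), a transcript annotated without a protein, had 0.120, 0.314 and 0.590 CPM in bone marrow controls and 1.92, 2.36 and 2.91 CPM in treated bone marrow. Its spleen libraries held 1.84, 2.31 and 2.09 CPM in controls and 0.712, 0.956 and 0.510 CPM with doxycycline. The control difference was called (2.60 ± 0.48, adjusted p = 0.0389), that under doxycycline was not (−1.71 ± 0.45, adjusted p = 0.1), and the interaction was −4.31 ± 0.66 (adjusted p = 0.0425). Tmem144 (ENSMUSG00000027956, chromosome 3, 79812564 to 79852773, minus strand) had the same order at higher counts. It held 9.57, 7.87 and 6.92 CPM in bone marrow controls, 16.99, 17.4 and 18.2 CPM in treated bone marrow, 14.7, 17.6 and 15.3 CPM in spleen controls and 11.7, 7.53 and 11.1 CPM in treated spleen (interaction −1.76 ± 0.27, adjusted p = 0.0425).

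Samhd1 (ENSMUSG00000027639, chromosome 2, 157097533 to 157135265, minus strand), whose enzyme breaks down deoxynucleotides and restricts viruses, had 127, 122 and 150 CPM in bone marrow controls and 195, 232 and 187 CPM in treated bone marrow. Spleen controls held 197, 191 and 190 CPM and treated spleen 149, 148 and 126 CPM. Its control and treated differences were 0.54 ± 0.13 (adjusted p = 0.08) and −0.53 ± 0.13 (adjusted p = 0.0845), equal in size and neither called, while the interaction that sums them was (−1.07 ± 0.18, adjusted p = 0.0494). In 7 of the 23 genes neither tissue difference was called on its own, namely Samhd1, Kdm2b, Tmem144, Pgam1, Nr4a1, Cenph and Slc22a13b.

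Nr4a1 (ENSMUSG00000023034, chromosome 15, 101254269 to 101274795, plus strand), an orphan nuclear receptor and immediate early gene, had 1.32, 1.29 and 1.18 CPM in bone marrow controls and 0.0852, 0.291 and 0.155 CPM in treated bone marrow. Its spleen controls held 0.568, 0.300 and 0.393 CPM and treated spleen 0.777, 1.23 and 1.02 CPM. It fell 6.89-fold in bone marrow (adjusted p = 0.00879), and the spleen value of 1.26 ± 0.43 was not called (adjusted p = 0.147), though the groups did not overlap in either tissue (interaction 4.04 ± 0.64, adjusted p = 0.0472). Kdm2b (ENSMUSG00000029475, chromosome 5, 122870665 to 122989823, minus strand), a histone demethylase gene that also brings Polycomb complexes to CpG islands, had 18.6, 17.03 and 18.2 CPM in bone marrow controls and 11.6, 11.8 and 12.01 CPM in treated bone marrow, against 13.3, 12.8 and 13.2 CPM in spleen controls and 18.9, 19.0 and 16.7 CPM in treated spleen. Cenph (ENSMUSG00000045273, chromosome 13, 100759674 to 100775899, minus strand), a subunit of the inner kinetochore, had 72.4, 83.2 and 61.2 CPM in bone marrow controls and 41.3, 32.9 and 43.9 CPM in treated bone marrow, against 49.8, 48.9 and 46.2 CPM in spleen controls and 62.3, 58.5 and 69.8 CPM in treated spleen. Both fell in bone marrow, by 0.60 ± 0.12 for Kdm2b (adjusted p = 0.0139) and 0.88 ± 0.15 for Cenph (adjusted p = 0.00839), and neither was called in spleen (0.47 ± 0.12 and 0.40 ± 0.14). Their interactions were 1.08 ± 0.16 (adjusted p = 0.0425) and 1.27 ± 0.20 (adjusted p = 0.0485). Exons of Kdm2b overlap those of Rnf34 on the other strand, whose own interaction was 0.35 ± 0.16.

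Across the 23 genes, the effect within bone marrow was called for 22, all but Phf11d, where 10.9% of all genes tested were called (1544). The effect within spleen was called for 7, where 0.99% of all genes were called (140). Opposite effects were called in the 2 tissues for 6 genes: Pou4f1, Itpr1, Dusp1, Maml2, Slc52a3 and Pgam1. The difference between control tissues was called for 7 genes (0.665% of all genes, 94) and that between treated tissues for 10 (0.403%, 57). These comparisons are the parts of the interaction that chose the genes and use the same libraries, so no weight rests on these counts or on the opposite signs of the tissue differences, which all 23 genes had. By the mean log2 CPM, 1 group stood apart in 9 genes, meaning that its gap to the nearest group was larger than the span of the other 3. It was treated bone marrow in 6 (Sumf1, Slc22a13, Slc22a13b, Slc14a1, Filip1l and Hist1h3c), control spleen in 2 (Phf11d and Dusp1), treated spleen in 1 (Itpr1) and control bone marrow in 0. The genes nearest to the limit on the other side were Iqsec1 (1.51 ± 0.25) and Xbp1 (−1.53 ± 0.26), both with adjusted p = 0.0504.

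The libraries of treated spleen varied most. The spleen doxycycline libraries differed among themselves by 0.770 to 1.13 (root mean square difference in log2(CPM + 1)), against 0.130 to 0.309 within the other 3 groups. Replicate 1 lay 0.415 to 0.496 from the spleen controls and replicate 2 lay 1.03 to 1.04 from them. The library nearest to replicates 2 and 3 was one of treated bone marrow, at 0.571 and 0.552. The median SD of log2 CPM in treated spleen was 0.46 over all genes and 0.30 over the called ones, against 0.12 to 0.23 for the called genes in the other groups. Total expected counts ran from 21.8 to 39.4 M per library. Myh11 had 0 to 9 expected counts per library and was not tested, and Cbfb, whose counts also include the normal allele, had an interaction of 0.03 ± 0.34 (adjusted p = 0.987).

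**Figure D3:**
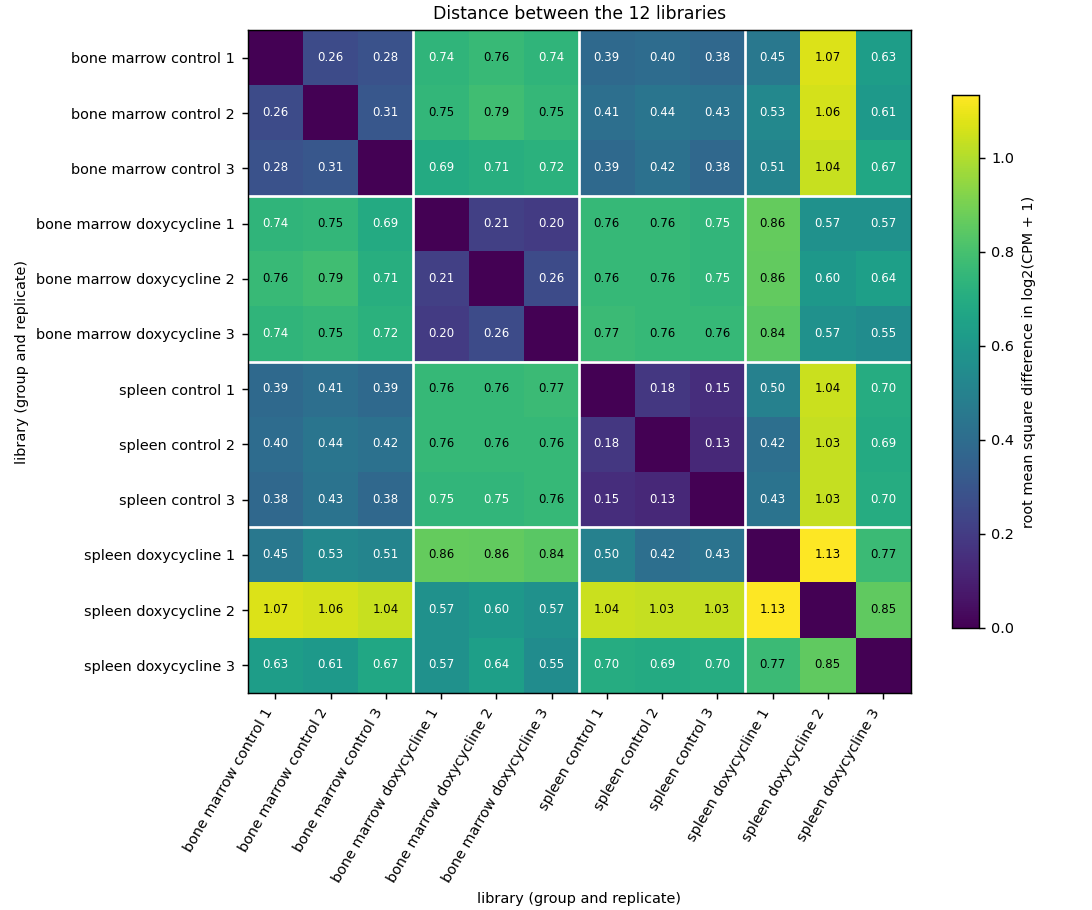
Root mean square difference in log2(CPM + 1) between each pair of the 12 libraries, over genes whose average log2 CPM reached 3, with white lines between groups. Distances within the first 3 groups are 0.130 to 0.309, while the 3 spleen doxycycline libraries are 0.770 to 1.13 apart. Each of these is nearer to another group than to its own. Replicate 1 is nearer to the controls of both tissues, replicate 2 to treated bone marrow and replicate 3 to each of the other 3 groups.

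Each spleen doxycycline library was left out in turn. All 23 genes remained called in the same direction in each of these 3 fits, which called 211, 1914 and 125 genes without replicates 1, 2 and 3. Leaving out a library of another group gave fewer calls: 8, 2 and 2 genes were called without bone marrow control replicates 1, 2 and 3, and 2 without bone marrow doxycycline replicate 1. No gene was called by edgeR without bone marrow doxycycline replicate 2 or 3 or without any 1 of the spleen controls, where 1236 to 1536 genes had an unadjusted p under 0.05. All 23 interactions kept their direction in all 12 fits. The genes were chosen with these same libraries, so no weight rests on kept calls or directions. With all 12 libraries, DESeq2 called 387 genes and limma-voom 39, with 23 and 22 of the 23 among them.

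**Figure D4:**
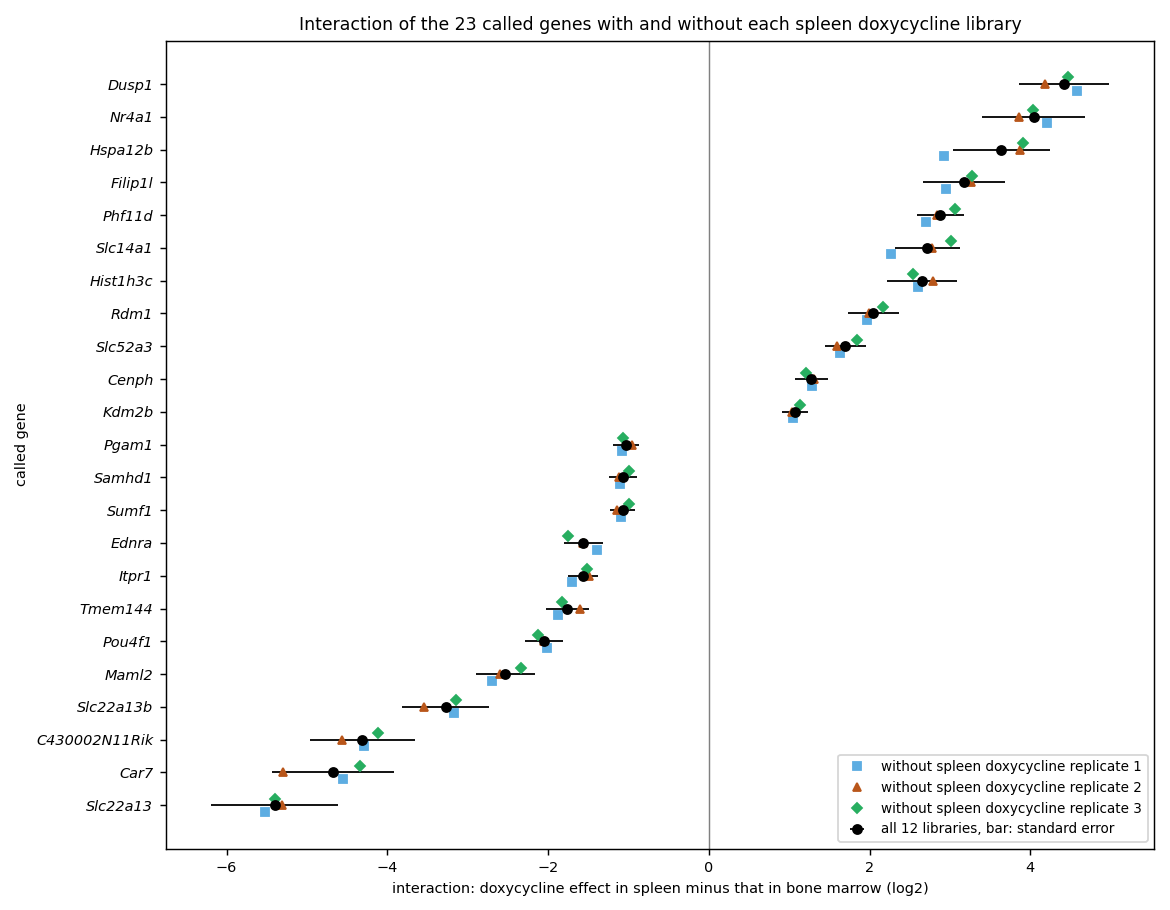
Interaction (log2) of the 23 called genes with all 12 libraries (circle, bar of 1 standard error) and without each of the 3 spleen doxycycline libraries. Fits without a library of another group, which gave fewer calls, are not drawn. Points of a gene lie close together and on the same side of 0; Hspa12b moved from 3.64 to 2.92 without replicate 1 and Car7 from −4.68 to −5.29 without replicate 2.

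Gene lists around the called genes were counted next. Immediate early genes are switched on by growth factor and stress signals within minutes. Of 24 tested, 17 had a positive interaction (7781 of all 14140 genes did), and the list's median was 1.59, against 0.06 for all genes. Without spleen doxycycline replicate 1 the median was 0.77. Without replicate 2 it was 1.82, with 10 members called higher, where 1017 of 14438 genes tested were called higher. Nr4a1 was the called member with all libraries. At an unadjusted p under 0.05 there were 11 positive and 1 negative, where 6.58% of all genes were positive and 5.62% negative. Egr1, a zinc finger immediate early gene, held 233, 136 and 127 CPM in bone marrow controls, 41.2, 27.1 and 36.2 CPM in treated bone marrow, 40.5, 35.0 and 45.4 CPM in spleen controls and 72.0, 24.5 and 57.1 CPM in treated spleen. It differed between the controls (−2.04 ± 0.36, adjusted p = 0.0372) and fell in bone marrow (−2.25 ± 0.37, adjusted p = 0.00839), and its interaction of 2.59 ± 0.51 was not called (adjusted p = 0.0796). Egr1 was higher in each bone marrow control than in any other library. Jun, a subunit of AP-1, had 1538, 1241 and 926 CPM there against 106 to 801 CPM in the other groups (interaction 3.28 ± 0.79, adjusted p = 0.136). Treated spleen replicate 2 was the low library of its group for Egr1, Jun (106 CPM), Fos (0.518 against 67.4 and 109 CPM) and Zfp36 (22.3 against 144 and 77.2 CPM). The list's median between controls was −0.98, and within bone marrow it was −1.45, with 2 members up and 5 down, where 6.75% of all genes were called up and 4.17% down.

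Of 14 dual specificity phosphatase and Sprouty genes, which restrain MAP kinase signalling, Dusp1 was the called one, and the median interaction was 0.09. The 31 unfolded protein response genes had a median of −0.06 and 0 calls by edgeR, with 1 called by DESeq2 and 1 by limma-voom. Of these 31, 1 was positive and 2 negative at an unadjusted p under 0.05, where 6.58% and 5.62% of all genes were. Xbp1, its central transcription factor, had 42.8, 32.6 and 39.01 CPM in bone marrow controls, 56.8, 64.9 and 65.05 CPM in treated bone marrow, 82.8, 81.1 and 81.7 CPM in spleen controls and 45.4, 33.9 and 60.1 CPM in treated spleen. The 26 genes of the ATF4 stress response had a median of −0.47 and 0 calls by edgeR, with 2 called by DESeq2 and 0 by limma-voom. Of these 26, 1 was positive and 4 negative at an unadjusted p under 0.05, where 6.58% and 5.62% of all genes were. Without spleen doxycycline replicate 2 the median was −0.79, with 12 members called lower, where 897 of 14438 genes tested were called lower. Ppp1r15a, the phosphatase subunit that ends that response, was the positive one (1.77 ± 0.33, adjusted p = 0.0705). It was low in control spleen (65.8, 78.4 and 75.8 CPM) against 151 to 327 CPM in the other 9 libraries. It rose in spleen (1.45 ± 0.24, adjusted p = 0.0305) and differed between the controls (−1.67 ± 0.24, adjusted p = 0.0164).

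Interferon-stimulated genes are antiviral genes switched on by STAT signalling. Of 49 tested, 46 had a negative interaction (6359 of all 14140 genes did), and the list's median was −1.01. None was called by edgeR or limma-voom and 8 were by DESeq2. At an unadjusted p under 0.05 there were 18 negative and 1 positive, where 5.62% of all genes were negative and 6.58% positive. The medians of its parts were 0.79 between controls, −0.38 between treated tissues, 0.39 within bone marrow (6 up and 2 down, where 6.75% and 4.17% of all genes were called) and −0.65 within spleen (0 called by edgeR, 1 up and 19 down at an unadjusted p under 0.05, where all genes gave 11.7% and 7.19%). Usp18, a brake on interferon signalling, held 9.77, 12.6 and 11.3 CPM in bone marrow controls, 29.7, 36.8 and 31.6 CPM in treated bone marrow, 41.5, 44.8 and 47.0 CPM in spleen controls and 17.4, 37.0 and 5.05 CPM in treated spleen (interaction −2.70 ± 0.70, adjusted p = 0.158). Treated spleen replicate 3 was the lowest of its group for Usp18, Mx2, Oas2 and Irgm1, and without it the list's median was −0.71. Without replicates 1 and 2 it was −0.86 and −1.74, the latter with 24 members called lower, where 897 of 14438 genes tested were called lower. The 16 interferon-inducible GTPase genes had a median of −0.96, with 0 calls by edgeR or limma-voom and 1 by DESeq2. Of these 16, 6 were negative and 0 positive at an unadjusted p under 0.05, where 5.62% and 6.58% of all genes were. Without spleen doxycycline replicate 2 the median of this list was −1.69, with 5 members called lower against the same 897 of all genes. Without replicate 3 it was −0.63. Phf11d had a positive interaction, and its paralogue Phf11c had −1.02 ± 0.34 (adjusted p = 0.27). The 10 tested genes of the PHF11 and IFI200 families had a median of −0.07.

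Of 29 kinetochore and centromere genes, 28 had a positive interaction (7781 of all 14140 genes did), with a median of 0.46. Of these 29, 8 were positive and 0 negative at an unadjusted p under 0.05, where 6.58% and 5.62% of all genes were. Without spleen doxycycline replicate 2 the median was 0.29. Cenph was the called member, and Cenpw followed at 1.10 ± 0.28 (adjusted p = 0.15). The medians between controls and between treated tissues were −0.18 and 0.29. The 11 sulfatase genes and their activating factors had a median of −0.32 with Sumf1 as the called one, and the lysosomal sulfatase gene Ids had −1.22 ± 0.31 (adjusted p = 0.15). For the 17 heat shock protein 70 family members and co-chaperones the median was −0.04, with Hspa12b as the called one. The 25 core binding factor and haematopoietic factor genes had a median of 0.13 (0.0059 without spleen doxycycline replicate 1) and 0 calls by edgeR, with 1 called by DESeq2 and 0 by limma-voom. Of these 25, 4 were positive and 2 negative at an unadjusted p under 0.05, where 6.58% and 5.62% of all genes were.

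**Figure D5:**
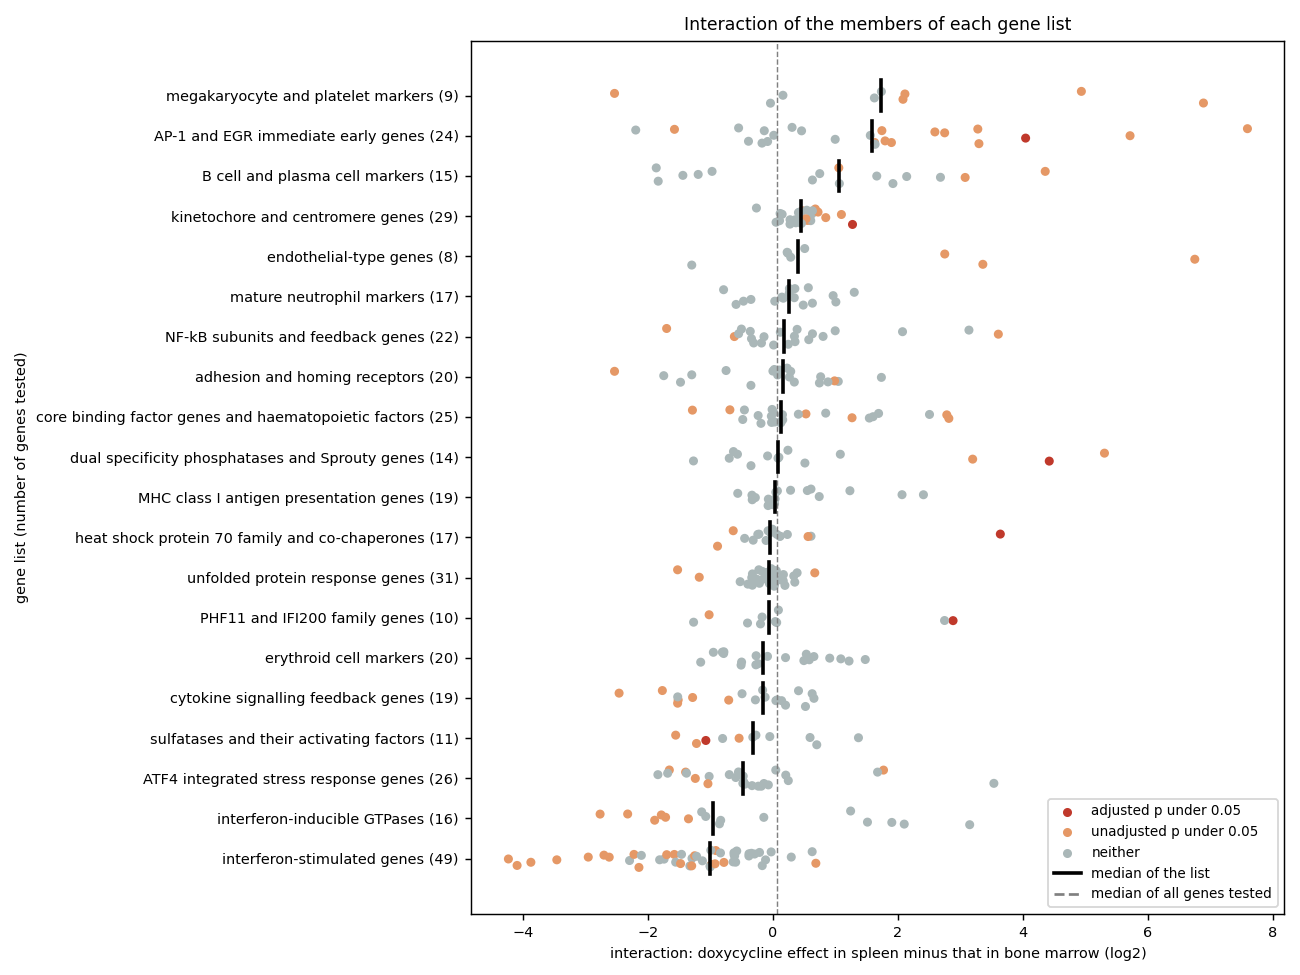
Interaction (log2) of each tested member of 20 gene lists, with a bar at the median of the list and a dashed line at the median of all genes tested (0.06). The immediate early genes have a median of 1.59 and the interferon-stimulated genes −1.01, and called members are the single red points of 6 lists.

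Markers of other blood cells moved with the groups. Neutrophil lineage markers, 17 of 17 tested, included Elane, Mpo, Prtn3 and Ctsg and so were not limited to mature cells. They summed to 988 to 1456 CPM in bone marrow controls, 356 to 731 in treated bone marrow, 57.2 to 184 in spleen controls and 19.0 to 173 in treated spleen. Their median was −3.39 between the controls, with 4 lower members called (0.431% of all genes), and 0.26 for the interaction. Between the treated libraries it was −3.11, with 2 lower members called, where 43 of all 14140 genes were. At an unadjusted p under 0.05, 17 were lower in spleen and 0 higher in each of these 2 tissue comparisons. Of all genes, 828 were lower and 791 higher between controls, and 1037 and 1429 between treated libraries. Of the 23 called genes, 7 had their highest group mean in the bone marrow controls, where the neutrophil sums were highest as well (Dusp1, Slc52a3, Slc14a1, Nr4a1, Cenph, Filip1l and Hspa12b), as did Egr1 and Jun. The part of neutrophil lineage RNA in the values of these genes was not tested. How many of all genes tested had their highest mean there was not counted, so no weight rests on the 7. Whether the leukaemia cells themselves expressed the markers was not tested either. Erythroid markers (20 tested) had a median interaction of −0.16 and 0 calls by edgeR, 0 positive and 0 negative at an unadjusted p under 0.05 and 0 calls by DESeq2 and limma-voom. Their sum ran from 7383 to 9874 CPM in the controls and 57734 to 69534 in treated bone marrow, and in treated spleen it was 9844, 105155 and 50152. Megakaryocyte and platelet markers had a median interaction of 1.74 over 9 tested, and 1.03 without spleen doxycycline replicate 1. Their sum was 350 to 383 CPM in treated bone marrow and 732 to 934 in the controls, and in treated spleen 1299, 98.1 and 616, while Ppbp was at or under 3 counts in every library. B cell markers had a median of 1.05 over 15 tested, and 0.30 without spleen doxycycline replicate 3, with sums of 58.8 to 183 CPM over all groups. Of the 14 stromal and endothelial markers, Col3a1, Cdh5, Emcn, Madcam1 and Ccl21a were at or under 3 counts in every library. The list summed to 161.9 to 218.7 CPM in bone marrow controls and 238.5 to 248.9 in treated bone marrow. In spleen it summed to 108.0 to 110.1 CPM in controls and 31.2 to 215.3 with doxycycline. Only 4 members were tested, with 0 called by edgeR between the controls. At an unadjusted p under 0.05, 2 were lower in spleen controls and 0 higher, where 828 and 791 of all 14140 genes were. In sorted bulk RNA, fewer cells of a type and less RNA per cell cannot be told apart.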

How the data were processed

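RNA-seq of GFP-sorted leukaemia cells was analysed in the 12 libraries of 7 days, grouped by their labels. Per the submitters' processing notes, the tools were FastQC, MultiQC, RSEM, STAR and Trim Galore with the build GRCm38, and the libraries, per the labels' protocols, came from oligo-dT enriched RNA by NEBNext Ultra II. Strandedness, annotation release and tool versions are not given in the sources used here. The deposited expected counts (RSEM) were rounded to whole numbers and tested. The deposited TPM values were used only to check names: in 16 of 16 files they correlated best across genes with the file's own count column.

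One edgeR 4.0.16 quasi-likelihood fit (robust, R 4.3.3, limma 3.58.1) with 1 mean per group, filterByExpr and TMM scaling kept 14140 of 55487 genes and left 8 residual degrees of freedom. Tests were two-sided, with Benjamini-Hochberg adjustment over all genes tested and calls at 0.05. The fit was also run on simulated counts that gave each gene the same spread in all groups. That setting leaves out the larger spread of treated spleen, so no weight rests on it. CPM are TMM-scaled. Identifiers were named through GENCODE M21 for GRCm38 (55394 matched). All called genes are named, with members of each list that had the smallest p. The members and lists were chosen with earlier results of these data known. The labels do not say whether the replicate numbers pair the libraries. Deviations from the group mean correlated over 0.1 in 4 of 18 same-numbered pairs. With 3 replicates per group this cannot decide whether libraries were paired. Alternatives included DESeq2 1.42.0, limma-voom, other filters and scaling, and leaving out each library. The 4 secondary disease libraries were kept out of the tests.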

Additional observations from a re-analysis of the deposited data

Results flagged for a closer look

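The effect of doxycycline differed between spleen and bone marrow by the interaction test for 23 genes, each with an edgeR adjusted p under 0.05. The log2 interactions in the positive direction were 4.42 for Dusp1, 4.04 for Nr4a1, 3.64 for Hspa12b, 3.17 for Filip1l, 2.88 for Phf11d, 2.72 for Slc14a1, 2.66 for Hist1h3c, 2.05 for Rdm1, 1.70 for Slc52a3, 1.27 for Cenph and 1.08 for Kdm2b. In the negative direction they were −5.40 for Slc22a13, −4.68 for Car7, −4.31 for C430002N11Rik, −3.27 for Slc22a13b, −2.53 for Maml2, −2.05 for Pou4f1, −1.76 for Tmem144, −1.56 for Itpr1, −1.56 for Ednra, −1.07 for Sumf1, −1.07 for Samhd1 and −1.03 for Pgam1.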

How the results depend on the processing

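The number of interaction calls, 23 as reported, depended on the test and on single libraries. It was 32 with DESeq2 size factors, 51 with no filter on low counts, 22 with a mean count of at least 50, 387 by the DESeq2 Wald test, 39 by limma-voom, 699 by limma-voom with sample quality weights, 30 without robust estimation and 7 with all 16 libraries. A replicate block left 3 calls (Phf11d, Pou4f1 and Itpr1). In 4 of 18 pairs a library was closest to its own number, which cannot decide whether the numbers pair the libraries. The range over the 12 fits without 1 library was 0 to 1914. The cause of these differences was not tested.

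For the control difference, 94 as reported, the counts were 156 with no filter, 48 with a mean count of at least 50, 19 with the replicate block, 584 by DESeq2, 205 by limma-voom, 2506 with quality weights and 27 with 16 libraries, and 3 to 604 without 1 library. For the doxycycline difference, 57 as reported, they were 114, 65, 0, 861, 103, 90 and 7 in the same order, and 0 to 2984, where the edgeR fit with the block had 1977 genes at an unadjusted p under 0.05. For bone marrow, 1544 as reported, they were 963, 1426, 951, 2614, 1298, 5857 and 949, and 157 to 3822. For spleen, 140 as reported, they were 153, 185, 4, 1160, 148, 864 and 107, and 2 to 3054. Without spleen doxycycline replicate 2 the first 4 kinds of comparison, the interaction included, reached the upper end of their range, and spleen did so without replicate 1.

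The size rule gave 5, 7 and 11 genes from controls, doxycycline and both under all 9 alternatives but the mean count of at least 50, which tested 19 of the 23 genes (5, 6 and 8). Without 1 library it gave 4 to 5, 5 to 8 and 10 to 13.

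The direction turned for Cbfb by limma-voom (−0.064), for the median of MHC class I genes with the replicate block (−0.049) and of NF-kB genes with a mean count of at least 50 (−0.081). Without 1 library the medians crossed 0 for the Dusp and Sprouty genes (−0.12 to 0.27), the unfolded protein response (−0.22 to 0.068), PHF11 and IFI200 (−0.70 to 0.36), MHC class I (−0.47 to 0.21), NF-kB (−0.38 to 0.34), heat shock protein 70 (−0.10 to 0.049), adhesion (−0.11 to 0.54), erythroid (−1.11 to 0.24) and neutrophil genes (−0.87 to 1.05), and Cbfb ran from −0.16 to 0.30. Genes with few counts, such as Slc22a13, are limited by depth.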

Other observations

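The 4 libraries of secondary disease, from spleens of mice kept on doxycycline until fatal disease, entered no comparison. Their median CPM, scaled by library totals alone, was nearest to the median of the bone marrow controls for 14 of the 23 called genes, to treated bone marrow for 4, to spleen controls for 3 and to treated spleen for 2. How all genes tested divided in this way was not counted, so no weight rests on these counts. Some were near ties, such as Samhd1 at 130.4 CPM against 130.8 in control bone marrow and 133.9 in treated spleen. Hspa12b measured 9.41, 8.86, 10.4 and 6.44 CPM in these libraries, a range of 8.11 to 8.73 having been seen in control bone marrow and 1.38 to 1.56 in control spleen. Itpr1 measured 80.5, 106, 106 and 157 CPM, against 33.1 to 48.7 in treated spleen. Nr4a1 measured 0.727, 0.318, 0.643 and 23.5 CPM, so that the last library was far above the other 3. For Ednra that library was far below them (55.5, 63.4, 56.9 and 9.46 CPM). These libraries differ from all others in time and disease stage. They differ from the bone marrow libraries in tissue too, and from the control libraries in treatment too.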
